A study of Homo sapiens with 6 samples.

Results

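Chemokine transcripts were followed in HCCC9810, an established human cholangiocarcinoma (CCA) cell line, after isolinderalactone (ILL), a plant sesquiterpene lactone. The members were 10 chemokine genes chosen by their symbols in the deposited count table, CXCL1, CXCL2, CXCL3, CXCL5, CXCL8, CXCL10, CXCL11, CXCL16, CCL5 and CCL20, out of 19470 genes in all. All 10 were among the 13066 genes that passed the filter on low counts and were tested, CXCL10 by way of its ILL libraries alone. Control cells received the vehicle, DMSO, for 24 h and treated cells received 20 μM ILL for 24 h, with 3 RNA-seq libraries in each group. All cells carried the genotype labelled wild type. The libraries come from 1 cell line at 1 dose and 1 time, and no source states that they were separate cultures, so the p-values measure only the spread between these libraries, which may be technical.

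Chemokines are small secreted proteins that guide leukocytes along a concentration gradient by way of G protein-coupled receptors. CXC chemokines with the ELR motif (CXCL1, CXCL2, CXCL3, CXCL5 and CXCL8) act on CXCR1 and CXCR2 and draw neutrophils, while CXCL10 and CXCL11 lack the motif, are induced by interferon and draw activated T cells through CXCR3. CXCL16 is made as a transmembrane protein that proteases shed, CCL5 draws T cells and monocytes, and CCL20 binds CCR6 on dendritic cells and Th17 cells. Many of these genes are known targets of NF-κB, and biliary epithelial and CCA cells are known producers of several of them.

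The 10 genes did not respond to ILL as a block. CXCL8, CXCL10 and CXCL16 rose more than 2-fold, CXCL1, CXCL5 and CCL20 fell to less than 0.5 of the control level, CXCL2 rose by less than 2-fold, and CXCL3, CXCL11 and CCL5 did not pass the test. DEGs here are genes with an adjusted p under 0.05 in edgeR's quasi-likelihood test that also had a fold change above 2 or under 0.5. By this rule 3 of the 10 members were DEGs higher with ILL, beside 12.5% of all genes tested, and 3 were DEGs lower with ILL, beside 11.4%. Of the 3 higher, CXCL10 passed the filter on low counts only through its ILL libraries, so its call is conditional on that. By the adjusted p alone, 4 members were higher, beside 36.2% of all genes, and 3 were lower, beside 36.9%, shares near those of all genes that mark nothing particular about the members. In 7 members the counts of the groups, scaled by library, did not overlap, beside 75.4% of all genes tested. The median log2 fold change, ILL over control, was 0.52 over the members and -0.0012 over all genes tested. In these bulk libraries, fewer cells that express a gene and less RNA per cell cannot be told apart.

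Sequences in front of the genes show what the members share at the DNA level, although they moved in different directions. RefSeq promoter windows on GRCh38.p14, from 250 bases before to 50 after the annotated start, were matched by symbol for 8 of the 10 members, CXCL16 and CCL5 being without an entry. The lines below give 30 bases around each κB site, the type of site that NF-κB dimers bind, with the match in capitals and each sequence written 5′ to 3′ on the strand of its gene. CXCL6, a chemokine gene outside the 10, is shown beside its near copy CXCL5.
CXCL1, chr4:73869304-73869333, plus strand: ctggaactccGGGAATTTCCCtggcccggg
CXCL2, chr4:74099254-74099283, minus strand: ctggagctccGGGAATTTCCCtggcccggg
CXCL3, chr4:74038749-74038778, minus strand: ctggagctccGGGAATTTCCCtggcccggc
CXCL5, chr4:73998749-73998778, minus strand: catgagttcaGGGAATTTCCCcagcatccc
CXCL6, chr4:73836578-73836607, plus strand: cctgagttcaGGGAATTTCCCcagcatccc
CXCL8, chr4:73740468-73740497, plus strand: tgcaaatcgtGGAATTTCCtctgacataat
CXCL10, chr4:76023655-76023684, minus strand: gaggagcagaGGGAAATTCCgtaacttgga
CXCL10, chr4:76023600-76023629, minus strand: tctgcaacatGGGACTTCCCcaggaacagc
CXCL11, chr4:76036127-76036156, minus strand: gactcaaagaGGGAAATTCCtgtgccataa
CCL20, chr2:227813753-227813782, plus strand: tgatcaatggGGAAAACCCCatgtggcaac

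The capitals mark matches to the κB decamer consensus on either strand and, in CXCL8, to the letters GGAATTTCC alone. The decamer consensus was found in 5.9% of 34943 promoter windows and in 7 of the 8 member windows, all but that of CXCL8. The letters GGAATTTCC, read on either strand and lying inside a decamer match in every member that holds them but CXCL8, were found in 0.464% of all windows and in 7 of the 8 member windows, all but that of CCL20. CXCL1, CXCL2, CXCL3 and CXCL5 share the same 11 letters, GGGAATTTCCC, which 0.0773% of all windows hold on either strand. Over the 30 bases printed, CXCL1 and CXCL2 are identical at 29 and CXCL2 and CXCL3 at 29, and CXCL5 and CXCL6 also at 29, while CXCL1 and CXCL5 are identical at 18. The match starts 79, 78 and 79 bases before the annotated start in CXCL1, CXCL2 and CXCL3 and 91 bases before it in CXCL5. GENCODE 29 places an exon of the gene itself over the printed bases of CXCL2, CXCL3, CXCL5, CXCL6 and CXCL11, from transcripts that start farther upstream.

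Other motifs were less shared. The AP-1 site TGANTCA, searched on both strands, was in 7.72% of all windows and in those of CXCL8 and CXCL11. The interferon-response core GAAANNGAA was in 8.1% of all windows and in those of CXCL2, CXCL3 and CXCL10. The TATA box TATAAA was in 11.6% of all windows and in those of CXCL8, CXCL11 and CCL20. A match is a description of the letters only, and binding was not measured in these libraries.

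**Figure D1:**
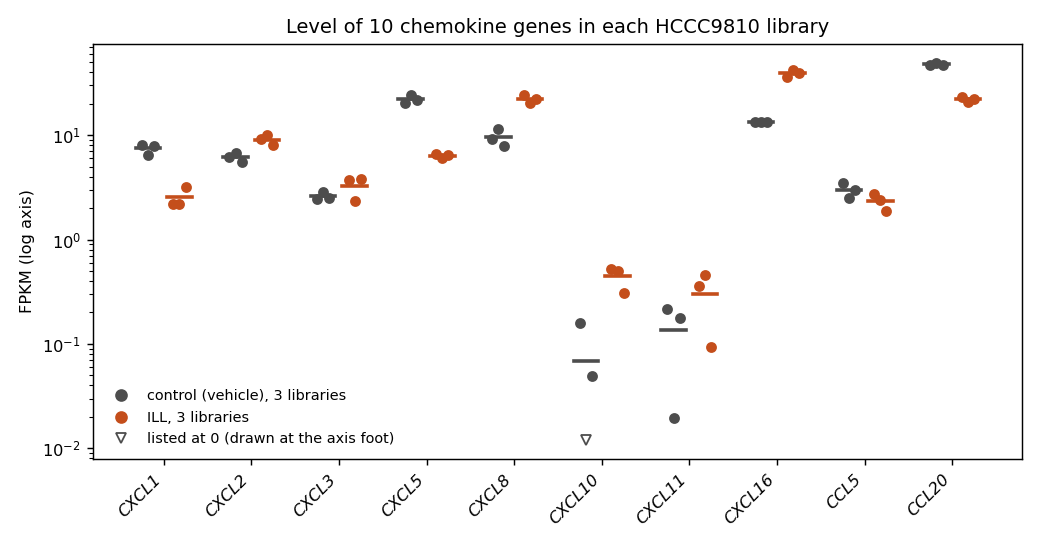
Level of each of the 10 chemokine genes in every library, in FPKM (counts scaled by gene length and library total, log axis), with control libraries in grey, ILL libraries in orange and horizontal lines at the group means. CXCL16 and CXCL8 lie higher and CCL20, CXCL5 and CXCL1 lower in all 3 ILL libraries, CXCL10 and CXCL11 lie below 1 FPKM in all 6 libraries, and a triangle marks the control library in which CXCL10 is listed at 0.

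On the FPKM scale, which divides by gene length and allows levels of different genes to be compared, CCL20 was the most abundant of the 10 transcripts in control cells, at 46.6 to 49.2 FPKM. CXCL5 followed at 20.1 to 24.1 FPKM and CXCL16 at 13.2 FPKM in all 3 libraries. CXCL8 (7.88 to 11.5 FPKM), CXCL1 (6.48 to 8.03 FPKM) and CXCL2 (5.48 to 6.67 FPKM) came next, and each overlapped its neighbour in this order. CCL5 (2.51 to 3.51 FPKM) and CXCL3 (2.44 to 2.82 FPKM) overlapped each other. CXCL11 and CXCL10 were lowest, with no control library above 0.215 FPKM.

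The order was different with ILL. CXCL16 was then highest, at 36.0 to 42.2 FPKM, followed by CXCL8 at 20.3 to 24.4 FPKM and CCL20 at 20.8 to 23.0 FPKM, which overlapped. CXCL2 (7.96 to 10.1 FPKM) now lay above CXCL5 (6.04 to 6.55 FPKM), with no overlap. CXCL3, CXCL1 and CCL5 formed an overlapping run between 1.87 and 3.82 FPKM, and CXCL10 and CXCL11 reached at most 0.525 FPKM. Of the summed FPKM of the 10 genes, CCL20 held a mean of 42.6% in controls and 20.5% with ILL, and CXCL5 held 19.7% and 5.87%. CXCL16 went the other way, from 11.8% to 36.4%, and CXCL8 from 8.5% to 20.6%. The summed level of the 10 genes, in CPM (counts scaled by library total with edgeR's TMM factors), was 159.3 ± 7.09 in controls. With ILL it was 189.5 ± 3.32 (SD, n = 3 each, exact two-sided permutation p = 0.1, the smallest that 3 libraries against 3 can give). CPM does not divide by gene length, so long transcripts such as CXCL16 (2398 bases) weigh more than short ones such as CCL20 (834 bases). Summed as FPKM, which divides by gene length and carries no TMM factors, the 10 genes were not higher with ILL. The TMM factors were 1.019 to 1.029 in controls and 0.9703 to 0.9823 with ILL. The direction thus depended on the unit and its scaling, and the part of each was not tested.

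**Figure D2:**
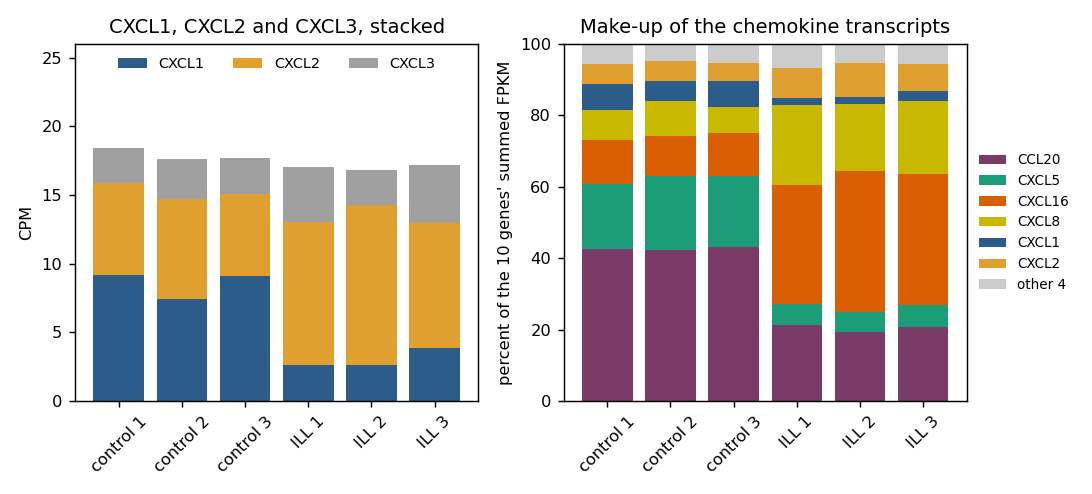
Stacked bars for each library, with CPM of CXCL1, CXCL2 and CXCL3 on the left and the percent of the 10 genes' summed FPKM that each gene holds on the right. CXCL1 shrinks and CXCL2 grows within a sum of 16.8 to 18.4 CPM, and CCL20 and CXCL5 give way to CXCL16 and CXCL8 in the ILL libraries.

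Among the ELR chemokines, CXCL8 (interleukin-8, the main human neutrophil attractant, chromosome 4 from 73740506 to 73743716 on GRCh38) rose. It had 573, 646 and 449 counts in control libraries 1 to 3 and 1428, 1180 and 1294 counts in ILL libraries 1 to 3. All 3 ILL libraries lay above all controls. The level was 15.3 ± 2.88 CPM in controls and 37.4 ± 3.27 CPM with ILL (SD, n = 3 each), a log2 fold change of 1.29 (standard error 0.104, 95% interval 1.07 to 1.51, edgeR adjusted p = 5.3e-11). CXCL2 (chromosome 4, 74097035 to 74099293), first described as a macrophage inflammatory protein, had 260, 255 and 212 counts in controls and 363, 400 and 318 counts with ILL. Its groups did not overlap, but the increase stayed under 2-fold, from 6.65 ± 0.633 to 10.4 ± 1.26 CPM, a log2 fold change of 0.64 (standard error 0.139, edgeR adjusted p = 0.000229).

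CXCL3 (chromosome 4, 74036589 to 74038807), a close copy of CXCL2, had 99, 104 and 94 counts in controls and 142, 89 and 147 counts with ILL. Scaled by library, ILL replicate 2 (2.59 CPM) lay inside the control range of 2.55 to 2.96 CPM, so the groups overlapped. ILL replicates 1 and 3 lay above that range. The log2 fold change of 0.41 (95% interval -0.09 to 0.91) did not pass the test (edgeR adjusted p = 0.133). Without ILL replicate 2 it was 0.60 and passed (edgeR adjusted p = 0.0373).

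CXCL1 and CXCL5 fell. CXCL1 (GROα, a growth-regulated neutrophil attractant, chromosome 4 from 73869393 to 73871242) had 356, 261 and 321 counts in controls and 92, 91 and 135 counts with ILL, without overlap. Its level went from 8.56 ± 0.979 to 3.04 ± 0.707 CPM (SD, n = 3 each), a log2 fold change of -1.49 (standard error 0.183, edgeR adjusted p = 8.39e-08). CXCL5 (an epithelial neutrophil attractant, chromosome 4 from 73995642 to 73998779) had 1853, 2012 and 1839 counts in controls and 569, 522 and 558 counts with ILL. All ILL libraries lay far below all controls, at 15.8 ± 0.562 CPM against 52.3 ± 4.78 CPM (SD, n = 3 each). The log2 fold change of -1.73 (standard error 0.0806, 95% interval -1.89 to -1.56, edgeR adjusted p = 1.12e-15) was the lowest of the 10 members. CXCL5 and CXCL8 thus changed places on the FPKM scale, from 22.0 and 9.53 in controls to 6.33 and 22.2 with ILL.

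Because CXCL1, CXCL2 and CXCL3 are near copies, reads could have been split between them. In an alignment of 1 GENCODE 29 coding transcript of each, CXCL1 and CXCL2 were identical at 90.5% of aligned bases, CXCL2 and CXCL3 at 82.6% and CXCL1 and CXCL3 at 81.3%. Of all windows of 50 bases in these transcripts, 5.73% of those of CXCL1, 9.24% of those of CXCL2 and 5.26% of those of CXCL3 also occurred in another of the 3 genes. None did at 100 or 150 bases, and how the authors' counting treated shared reads is not given in the sources used here. Added together, the 3 genes stood at 17.9 ± 0.421 CPM in controls and 17.02 ± 0.156 CPM with ILL (SD, n = 3 each). Each ILL sum lay slightly below every control sum (exact two-sided permutation p = 0.1, the smallest possible). Fitted as 1 gene, the 3 genes had a log2 fold change of -0.08 (standard error 0.0922), which did not pass the test (edgeR adjusted p = 0.474). Within that sum the share of CXCL1 went from 47.7% ± 4.90 to 17.9% ± 4.01 and that of CXCL2 from 37.1% ± 3.71 to 60.9% ± 7.98, with no overlap between groups (exact two-sided permutation p = 0.1 for each, the smallest possible). The share of CXCL3 was 15.2% ± 1.47 in controls and 21.2% ± 5.09 with ILL (exact two-sided permutation p = 0.2), and the 3 shares were tested without adjustment.

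The 5 ELR genes summed to 80.9, 93.3 and 82.4 CPM in the controls and to 74.1, 66.3 and 70.1 CPM in the ILL libraries. All ILL sums lay below the controls, by 0.28 on the log2 scale (exact two-sided permutation p = 0.1, the smallest possible). Without CXCL8 the difference was -1.10 on the log2 scale. As a sum of FPKM over all 5 genes, CXCL8 included, the difference was -0.13, and the exact two-sided permutation p was then 0.2.

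Both interferon-inducible members were near the detection limit. CXCL10 (chromosome 4, 76021117 to 76023497), a ligand of CXCR3, had 7, 0 and 2 counts in controls and 22, 21 and 13 counts with ILL. The groups did not overlap, and the library with 0 counts allows a level of up to 0.0854 CPM, taking 3 counts as the limit for counting error. The log2 fold change was 2.67 with a wide 95% interval of 1.09 to 4.24 (edgeR adjusted p = 0.00316), and without control replicate 1, which held 7 of the 9 control counts, it was 4.08 (edgeR adjusted p = 0.00137). These calls of CXCL10 are conditional, because the gene passed the filter on low counts through its ILL libraries alone. CXCL11 (chromosome 4, 76033682 to 76041415), the other CXCR3 ligand here, had 12, 1 and 9 counts in controls and 19, 24 and 5 counts with ILL. ILL replicate 3 lay inside the control range, and the log2 fold change of 1.19 (95% interval -0.27 to 2.65) did not pass the test (edgeR adjusted p = 0.134). CXCL9, the remaining CXCR3 ligand of this group, had 0 counts in all 6 libraries.

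CXCL16 had, relative to its level, the smallest spread among controls of the 10 members. This transmembrane chemokine, whose receptor is CXCR6 and which also acts as a scavenger receptor, lies on chromosome 17 from 4733526 to 4739922. It had 1198, 1086 and 1101 counts in controls and 3080, 3590 and 3391 counts with ILL. Every ILL library lay far above every control, at 96.4 ± 8.18 CPM against 31.0 ± 0.149 CPM (SD, n = 3 each). The log2 fold change was 1.64, or 3.11-fold (standard error 0.0681, 95% interval 1.498 to 1.779, edgeR adjusted p = 1.07e-16). Its exons overlap those of MED11 on the opposite strand at 85 bases, and whether the counting used strand is not given in the sources used here.

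Genes whose products shed or trim chemokines were listed beside it. Of 7 such genes tested, 4 were DEGs higher with ILL, beside 12.5% of all genes tested, and none was a DEG lower, beside 11.4%. By the adjusted p alone 4 were higher and 1 was lower, beside 36.2% and 36.9%. ADAM17, a sheddase of membrane proteins, rose from 1431, 1231 and 1098 counts to 2864, 2719 and 2642 counts (log2 fold change 1.20, edgeR adjusted p = 8.6e-14). ADAM10, the other sheddase known for CXCL16, had 5129, 4580 and 4767 counts in controls and 4912, 4488 and 4393 counts with ILL (log2 fold change -0.0033, standard error 0.0551, edgeR adjusted p = 0.961). MMP14, a membrane-bound matrix metalloproteinase, had a log2 fold change of 1.63, DPP4, which trims CXCL10 and CXCL11, 1.58, and the lysosomal protease CTSB 1.27, all DEGs in the edgeR test.

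Of the CC members, CCL20 fell and CCL5 did not pass the test. CCL20 (chromosome 2, 227805739 to 227817564), the ligand of CCR6, had 1467, 1407 and 1360 counts in controls and 685, 616 and 669 counts with ILL. The groups were far apart, at 38.8 ± 1.16 CPM and 18.9 ± 0.866 CPM (SD, n = 3 each). The log2 fold change was -1.04 (standard error 0.0766, 95% interval -1.20 to -0.88, edgeR adjusted p = 9.14e-12), and the fold of 0.487 lay just past the cutoff of 0.5. CCL5 (RANTES, chromosome 17 from 35871491 to 35880793) had 172, 112 and 133 counts in controls and 125, 110 and 87 counts with ILL. The groups overlapped, and the log2 fold change of -0.30 (95% interval -0.77 to 0.17) did not pass (edgeR adjusted p = 0.245). In limma's test on log2 of FPKM plus 1, with a mean of at least 1 FPKM required, it was -0.27 and passed (limma adjusted p = 0.0409). Of the 50-base windows of the CCL5 transcript, 16% also occurred in transcripts of other genes, so its counts could hold reads that are not its own.

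**Figure D3:**
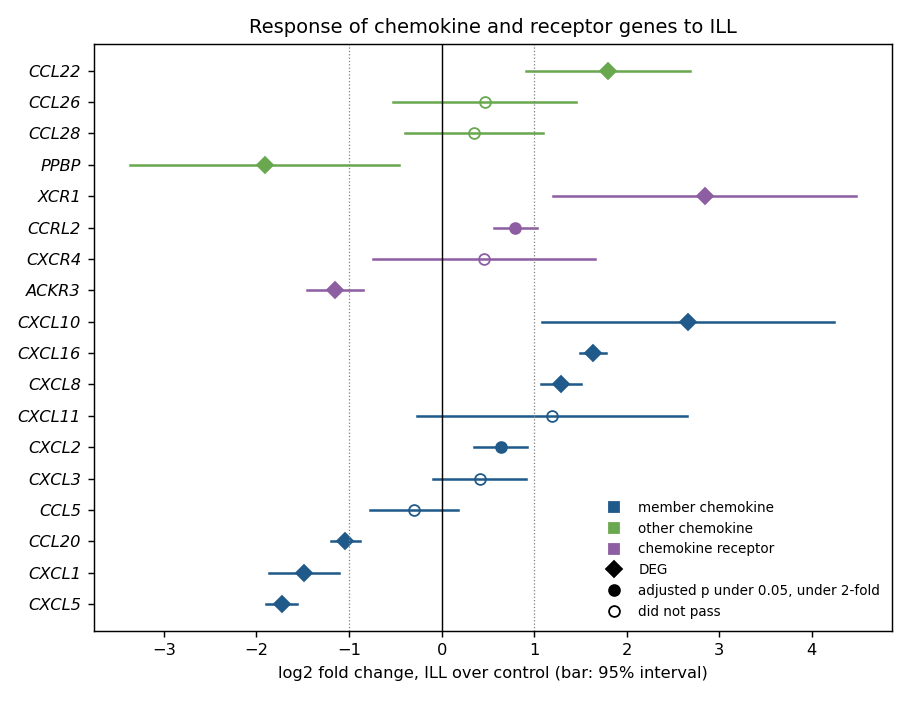
Log2 fold change, ILL over control, with its 95% interval from the edgeR fit for the 10 members (blue), the other 4 tested chemokines (green) and the 4 tested chemokine receptors (purple). Diamonds are DEGs, filled circles passed the adjusted p alone, open circles did not pass, and dotted lines mark 2-fold, and the intervals of CXCL10, CXCL11, PPBP and XCR1 are the widest.

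The rest of the chemokine system was sparse in these cells. Low genes such as XCR1, with 2 control libraries at 0, and PPBP passed the filter mainly through the group in which they were higher, so their calls are conditional on that. Of 38 other chemokines listed, 36 were in the count table, 19 of them had 0 counts in every library, and 4 were tested. CCL22, a CCR4 ligand, rose from 31, 8 and 22 counts to 75, 49 and 78 counts without overlap (log2 fold change 1.80, edgeR adjusted p = 0.000602). PPBP, the platelet ELR chemokine, had 45, 28 and 51 counts in controls and 2, 29 and 0 counts with ILL. It was a DEG lower (log2 fold change -1.91, edgeR adjusted p = 0.0178), yet ILL replicate 2 lay inside the control range, and the value was -5.15 without that library and -1.33 without ILL replicate 3 (edgeR adjusted p = 0.0766). The DESeq2 Wald test did not call PPBP (DESeq2 adjusted p = 0.298). CCL26 and CCL28, both epithelial chemokines, had log2 fold changes of 0.47 and 0.35 and did not pass (edgeR adjusted p = 0.387 and 0.392). CXCL6, the near copy of CXCL5 whose site is printed above, was too low to be tested, with 20, 16 and 5 counts in controls and 0, 4 and 0 counts with ILL.

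Among 23 chemokine receptors, 4 were tested, of which 1 was a DEG higher, beside 12.5% of all genes tested, and 1 a DEG lower, beside 11.4%. ACKR3, a scavenging receptor for CXCL11 and CXCL12, fell from 407, 350 and 404 counts to 181, 176 and 141 counts (log2 fold change -1.15, edgeR adjusted p = 1.36e-07). CCRL2, an atypical receptor that binds chemerin, rose from 340, 387 and 384 counts to 637, 622 and 592 counts, which was under 2-fold (log2 fold change 0.80, edgeR adjusted p = 7.4e-07). XCR1, the lymphotactin receptor, had 12, 0 and 0 counts in controls and 43, 25 and 15 counts with ILL (log2 fold change 2.84, edgeR adjusted p = 0.00258), did not pass the DESeq2 Wald test (adjusted p = 0.158), and had a fitted value of 7.80 without control replicate 1, which leaves 0 control counts. CXCR4 had a log2 fold change of 0.46 and did not pass (edgeR adjusted p = 0.489). Of the receptors of the members, those named next were at or near 0. CXCR1 had at most 11 counts, CXCR2 at most 5, CXCR3 at most 14 and CXCR6 at most 5 in any library, while CCR6 had 0 counts in all 6 libraries.

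**Figure D4:**
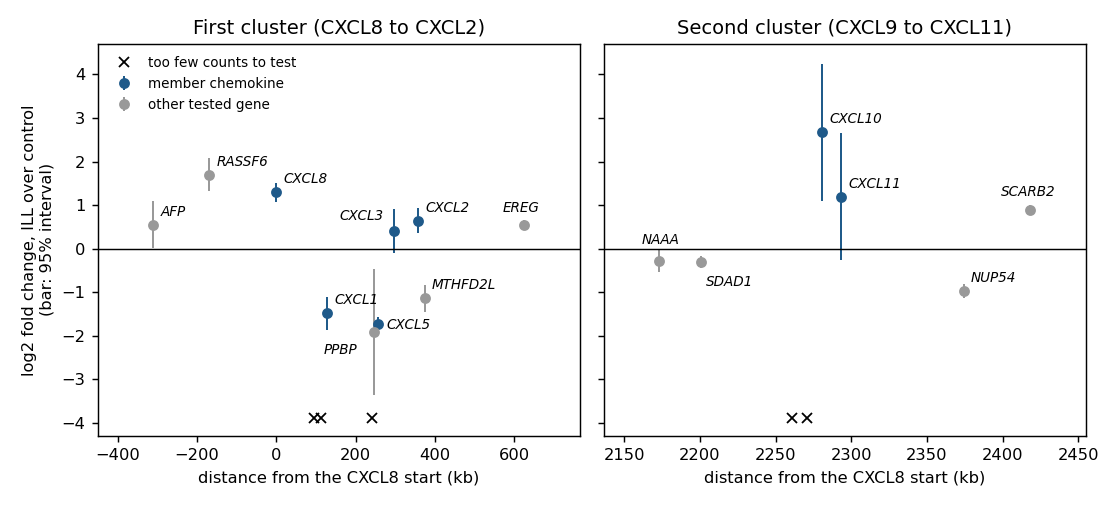
Log2 fold change, ILL over control, with its 95% interval (edgeR) against the distance from the CXCL8 start in kb, for tested genes of the first chemokine cluster on the long arm of chromosome 4 (left) and the second (right). Members are blue, other tested genes grey, and crosses at the foot mark genes with too few counts to test. CXCL1, PPBP and CXCL5 lie below 0 between CXCL8 and CXCL2, which lie above it, and the interval of CXCL3 spans 0.

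On chromosome 4, 7 of the 10 members lie in 2 clusters, and distances below are between the lowest coordinates of the genes. Along the first cluster, from CXCL8, the order was CXCL1 at 128.9 kb, CXCL5 at 255.1 kb, CXCL3 at 296.1 kb and CXCL2 at 356.5 kb, so that the members that fell lay between CXCL8 and CXCL2, which rose. PF4V1 and PF4, the platelet factor genes between them, had 0 counts in all libraries. On the CXCL8 side, RASSF6, a Ras-association protein at -169 kb, rose from 89, 86 and 75 counts to 252, 263 and 262 counts (log2 fold change 1.70, edgeR adjusted p = 1.06e-08), while AFP farther out did not pass (log2 fold change 0.55, edgeR adjusted p = 0.0622). The AFP value depended on single libraries, at 0.85 without ILL replicate 1 (edgeR adjusted p = 0.00321) and 0.05 without ILL replicate 3 (edgeR adjusted p = 0.869), and AFP also passed without control replicate 2 or ILL replicate 2 and with no filter on low counts. On the CXCL2 side, MTHFD2L, a folate enzyme of mitochondria at 373.7 kb, fell by 1.14 on the log2 scale (edgeR adjusted p = 2.48e-07), and EREG, an EGF receptor ligand, rose by less than 2-fold (log2 fold change 0.54, edgeR adjusted p = 1.29e-08). Around the second cluster, which begins at CXCL9 2260.8 kb from CXCL8 and holds CXCL10 and CXCL11, none of the 4 flanking genes was a DEG. SCARB2, a lysosomal membrane protein, and NUP54, a nuclear pore protein, passed the adjusted p in opposite directions, with log2 fold changes of 0.88 and -0.97. SDAD1, a ribosome assembly gene, had a log2 fold change of -0.32 (edgeR adjusted p = 0.000226), and NAAA, a lipid hydrolase, did not pass (log2 fold change -0.28, edgeR adjusted p = 0.0546), but passed in 6 of 15 alternatives, among them without control replicate 1 and without ILL replicate 1 (edgeR adjusted p = 0.0206 and 0.0126). ART3 spans CXCL10 and CXCL11 on the opposite strand, shares 0 exon bases with them and had at most 1 count in any library.

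**Figure D5:**
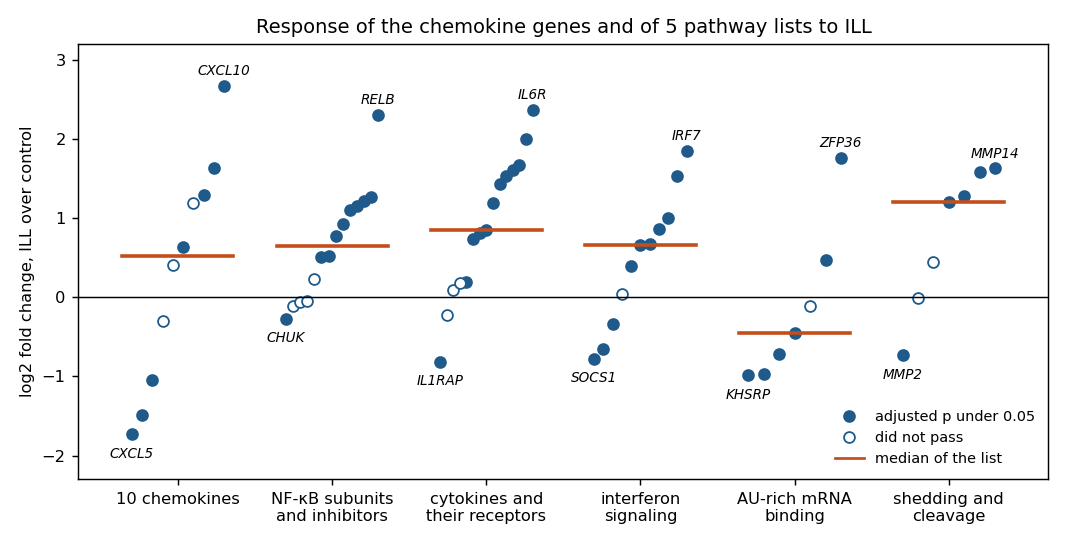
Log2 fold change, ILL over control, of each tested gene of the 10 chemokines and of 5 hand-written lists, with filled circles at an adjusted p under 0.05 in the edgeR fit, open circles that did not pass, orange lines at the medians and the lowest and highest gene of each list named. The chemokines spread from CXCL5 at -1.73 to CXCL10 at 2.67, and the NF-κB list from CHUK at -0.27 to RELB at 2.31.

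NF-κB is the transcription factor family whose sites are printed above. A list of its subunits and inhibitors, with the IKK complex genes CHUK, IKBKB and IKBKG, included more higher than lower genes with ILL at the RNA level. Of 14 tested genes, 5 were DEGs higher (12.5% of all genes tested), none was a DEG lower (11.4%), and by the adjusted p alone 9 were higher (36.2%) and 1 was lower (36.9%), with a median log2 fold change of 0.65 beside -0.0012 over all genes. RELA, the p65 subunit, had 3340, 2948 and 3373 counts in controls and 4953, 5287 and 5483 counts with ILL (log2 fold change 0.77, edgeR adjusted p = 3.02e-11). NFKBIA, the inhibitor IκBα and itself an NF-κB target, rose from 1526, 1367 and 1651 to 3167, 3109 and 3361 counts (log2 fold change 1.15, edgeR adjusted p = 2.01e-13). RELB and NFKB2, subunits of the noncanonical arm, had log2 fold changes of 2.31 and 1.26, and the deubiquitinase gene TNFAIP3 had 1.22, all DEGs. The lower gene was CHUK (-0.27), and REL, NFKB1, NFKBIB and NFKBIZ did not pass. RNA levels do not give the activity of NF-κB, which was not measured in these libraries.

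Cytokines and receptors that are known to act upstream of chemokine genes were listed next. Of 15 tested, 7 were DEGs higher, beside 12.5% of all genes, and none was a DEG lower, beside 11.4%. By the adjusted p alone 11 were higher, beside 36.2%, and 1 was lower, beside 36.9% (median log2 fold change 0.85). IL1A had 5776, 5175 and 5595 counts in controls and 21868, 19950 and 21448 counts with ILL, or 151.4 ± 5.93 and 605.8 ± 23.4 CPM (SD, n = 3 each), and IL1B had a log2 fold change of 1.60. IL1RN, the gene of the IL-1 receptor antagonist, rose as well (log2 fold change 1.67). IL6R had 2.37, on 24, 31 and 40 counts in controls and 185, 192 and 95 counts with ILL. All 4 were DEGs in the edgeR test, and TNF was too low to be tested, with at most 10 counts in any library. The lower gene was IL1RAP (log2 fold change -0.81, edgeR adjusted p = 5.7e-10), and IL1R1 did not pass (-0.22, edgeR adjusted p = 0.119).

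Of 11 tested interferon signaling genes, 2 were DEGs higher and none was a DEG lower, beside 12.5% and 11.4% of all genes. By the adjusted p alone 7 were higher and 3 were lower, beside 36.2% and 36.9% (median log2 fold change 0.66). IRF7, a regulator of type I interferon genes, and STAT2 were the DEGs, with log2 fold changes of 1.84 and 1.53. IRF1 had a log2 fold change of 0.67 (edgeR adjusted p = 4.68e-08).

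Chemokine mRNAs such as those of CXCL1 and CXCL8 carry AU-rich elements, to which proteins bind that set their decay. Of 7 genes of such proteins tested, 1 was a DEG higher and none was a DEG lower, beside 12.5% and 11.4% of all genes. By the adjusted p alone 2 were higher and 4 were lower, beside 36.2% and 36.9% (median log2 fold change -0.44). The DEG was ZFP36 (tristetraprolin, which promotes decay), with 952, 923 and 977 counts in controls and 3057, 3163 and 3014 counts with ILL (log2 fold change 1.76, edgeR adjusted p = 1.74e-17). The 4 lower genes, each by less than 2-fold, were KHSRP, HNRNPD, ELAVL1 and ZFP36L1 (log2 fold changes -0.98, -0.97, -0.71 and -0.44). ZC3H12A was the other higher gene (0.47). Decay itself was not measured.

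Markers of other cell types were read in the same libraries. The 7 biliary epithelial markers were all tested and summed to 9050 to 9292 CPM in controls and 9531 to 10120 CPM with ILL. By the edgeR adjusted p 3 of them were higher, beside 36.2% of all genes tested, and 4 were lower, beside 36.9%, with a median log2 fold change of -0.16. CDH1 (E-cadherin, log2 fold change 2.07) was the only DEG, and KRT7 and EPCAM rose by less than 2-fold (0.64 and 0.24). KRT18, SOX9, KRT19 and KRT8 fell by less than 2-fold (-0.82, -0.56, -0.18 and -0.16). The leukocyte list of 6 genes summed to 37.8 to 42.3 CPM in controls and 112.8 to 119.0 CPM with ILL. CD68, a lysosomal protein that other cells express too, made up most of it and rose (log2 fold change 1.58, edgeR adjusted p = 5.43e-17). PTPRC had at most 9 counts, CD3E at most 3 and MS4A1 at most 1 in any library. LYZ had 52, 37 and 24 counts in controls and 54, 60 and 70 counts with ILL, which did not pass (log2 fold change 0.78, edgeR adjusted p = 0.0578), and CD14, with at most 25 counts, did not pass either (edgeR adjusted p = 0.351). The fibroblast list of 5 genes summed to 9.66 to 12.2 CPM in controls and 13.2 to 17.0 CPM with ILL, nearly all of it from COL1A1, which passed as higher with ILL by less than 2-fold (log2 fold change 0.55, edgeR adjusted p = 0.000356), while DCN had at most 1 count and COL3A1 at most 3. The endothelial list of 4 genes summed to at most 1.91 CPM, although VWF in it was a DEG higher (log2 fold change 2.05, edgeR adjusted p = 0.0179) on 2, 13 and 0 counts against 25, 23 and 13 counts, a call that was lost without control replicate 1 or 3 or without ILL replicate 1 or 2. The hepatocyte list of 5 genes summed to 7.74 to 10.2 CPM in controls and 8.25 to 21.3 CPM with ILL, with CYP3A4 at 0 counts in all libraries. ALB in it had 245, 160 and 240 counts in controls and 214, 240 and 541 counts with ILL, and passed (log2 fold change 0.69, edgeR adjusted p = 0.0115). Only ILL replicate 3 lay far above the controls, at 15.5 CPM against at most 6.79 CPM. ILL replicate 1 lay inside the control range, so the groups overlapped. The part of these markers in the chemokine results was not tested. Total counts per library ranged from 34282764 to 37758569, and the 10 members together took 0.0159% to 0.0187% of them.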

How the data were processed

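RNA-seq libraries of HCCC9810 cells, 3 with vehicle and 3 with ILL, were compared. The authors deposited a table of raw counts and a table of FPKM values, which are those counts divided by gene length and library total. The labels' processing notes name GRCh38 and DESeq2, and the aligner and counting program are not given in the sources used here. Counts were filtered with filterByExpr, scaled by TMM and tested with edgeR 4.0.16 (quasi-likelihood, Benjamini-Hochberg over 13066 genes) in R 4.3.3. Alternatives used limma 3.58.1 on log2 of FPKM plus 1 or 0.1, DESeq2 1.42.0, other scalings and filters, a replicate block, and each library left out in turn. The fit was tested on simulated data.

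The members and gene lists were chosen with earlier results of these data known. Named genes are the members, other tested chemokines and receptors, up to 4 DEGs at each end of each list, RELA, NFKBIA, IRF1, ADAM10 and ADAM17, and up to 2 tested neighbours on each side of the chromosome 4 clusters. Other genes named were chosen after their values were seen, and the results of some genes within these rules are not given. Positions come from GENCODE 29 on GRCh38 and promoter windows from RefSeq on GRCh38.p14. With a biological coefficient of variation of 0.0717, precision was set mostly by the spread between libraries, and by counting error for genes with few counts. Replicate libraries were not copies of each other (chi-square per degree of freedom 5.09 to 11.5 between pairs).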

Additional observations from a re-analysis of the deposited data

How the results depend on the processing

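Of the 10 members, 8 kept their sign and their side of the adjusted p of 0.05 in every alternative run, the exceptions being CXCL3 and CCL5, and of 48 genes followed this way 40 did. With the fold cutoff included, 10 of 30 DEGs among them lost that call in at least 1 alternative, all 10 with limma on log2 of FPKM plus 1 without a filter, and CXCL10 was the only member among them, at 0.44, a scale that understates changes of low genes. CXCL10 and CXCL11 were not tested under a minimum of 10 counts in every library or of 1 FPKM on average. Same-numbered control and ILL libraries did not deviate together (correlations 0.0107, -0.0218 and -0.0179). With 3 libraries in each group, these values show no pairing by number but cannot settle whether cultures were paired. With a replicate block, 3 members were DEGs higher and 3 lower, and 0 of the calls at the adjusted p were lost among members. With CXCL1, CXCL2 and CXCL3 added together, 2 members were DEGs lower. Over all genes, DEGs higher numbered 1635 and DEGs lower 1485. By the adjusted p alone they were 4726 and 4821, by limma on log2 of FPKM plus 0.1 with a mean of at least 1 FPKM 909 higher, by limma on FPKM plus 1 with that filter 668 and 923, and without it 680 and 929. The ADAM10 value, not called in any fit, turned positive with DESeq2 size factors (0.0073), a minimum of 10 counts (0.0091), the DESeq2 Wald test (0.0037), and without 1 library at a time it ranged from -0.0483 to 0.0324, above 0 in 3 of 6 cases. The cause of these moves was not tested. With scaling by library size alone, the genes' median moved to -0.0702 on the log2 scale.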
